A study of Mus musculus with 7 samples.

Results

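Noradrenaline is the transmitter of the sympathetic nerves that run in the outer coat of arteries and set the tone of the smooth muscle below. Its synthesis runs from tyrosine to DOPA by tyrosine hydroxylase (Th), from DOPA to dopamine by DOPA decarboxylase (Ddc), and from dopamine to noradrenaline inside vesicles by dopamine beta-hydroxylase (Dbh). Many of these neurons also release neuropeptide Y, a vasoconstrictor peptide (Npy), and their axons grow with the help of the tubulin-binding protein stathmin-2 (Stmn2). Schwann cells ensheath the axons, and are known by the transcription factor Sox10, the calcium-binding protein S100b and, where they make myelin, myelin basic protein (Mbp). Nerve cell bodies lie in ganglia outside the vessel, so that a piece of aorta holds axons with their local RNA, Schwann cells and any ganglion left attached.

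These 8 genes, 5 of sympathetic neurons and 3 of Schwann cells, were chosen by name from the 32544 genes of the table, and all 8 had reads in at least 1 library. RNA had been taken from abdominal aortas, whole, of male Apoe-/- mice. These mice lack apolipoprotein E and develop plaques on a high-fat diet, which all of them ate for 12 weeks. Each week 50 mg/kg of nanoparticles was given into a vein, either ITA-LNP (3 libraries) or control particles (4 libraries, written control-LNP here, as the protocol does, or control-NP, as the titles do). The series title names itaconate, cholesterol burden and the exporter ABCA1, and no label gives a question about nerves. The animals' age is not in the labels, nor whether libraries come from different mice, so that p-values here rest on a spread between libraries that may be technical. Reads came from the 3′ end of transcripts, so that gene length does not enter the level, given as CPM (reads per 1000000 reads assigned to genes). Depth ran from 5077073 to 7281721 reads, and 0 reads allow a level of up to 3 reads, which is 0.412 to 0.591 CPM by library. These limits cover counting error only.

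The libraries labelled control-LNP held little of the vessel wall that their label names. Of 9 smooth muscle genes (Acta2, Myh11 and others) all 9 were called higher with ITA-LNP, and they summed to 16820 to 20435 CPM with ITA-LNP against 120.2 to 221.6 CPM with control-LNP. Platelet genes summed to 89.2 to 169.7 CPM with ITA-LNP and 4991 to 6401 CPM with control-LNP, with 7 of 8 called lower. Lymphocyte genes summed to 20.6 to 34.5 and 491.0 to 1743 CPM, with 5 of 8 called lower. Control-LNP 2 stood apart: its correlation with the other controls over genes was 0.667 to 0.682, against 0.95 to 0.958 among those 3, and it held 26862 CPM of 7 neutrophil genes. In whole tissue, fewer cells of a type and less RNA per cell cannot be told apart.

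Promoters are shown for the noradrenaline enzymes Th and Dbh and for Npy, because Dbh and Npy differed between the groups below and Th is the enzyme that commits a cell to this pathway. They are the 250 bases before the RefSeq gene start on GRCm38.p6, 5′ to 3′ along the gene, for Th chr7:142899996-142900245 (minus strand), for Dbh chr2:27165257-27165506 (plus) and for Npy chr6:49822460-49822709 (plus). Capitals mark letters that match a searched motif.
Th promoter: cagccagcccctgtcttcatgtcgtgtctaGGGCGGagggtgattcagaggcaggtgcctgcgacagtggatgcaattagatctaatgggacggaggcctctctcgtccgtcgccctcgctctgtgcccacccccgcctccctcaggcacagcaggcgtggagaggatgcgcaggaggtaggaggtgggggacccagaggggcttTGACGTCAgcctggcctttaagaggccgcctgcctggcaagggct
Dbh promoter: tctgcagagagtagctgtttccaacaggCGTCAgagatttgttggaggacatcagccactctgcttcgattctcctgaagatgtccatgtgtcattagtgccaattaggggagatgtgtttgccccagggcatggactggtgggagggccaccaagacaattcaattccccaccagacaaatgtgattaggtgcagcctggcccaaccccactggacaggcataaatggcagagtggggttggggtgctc
Npy promoter: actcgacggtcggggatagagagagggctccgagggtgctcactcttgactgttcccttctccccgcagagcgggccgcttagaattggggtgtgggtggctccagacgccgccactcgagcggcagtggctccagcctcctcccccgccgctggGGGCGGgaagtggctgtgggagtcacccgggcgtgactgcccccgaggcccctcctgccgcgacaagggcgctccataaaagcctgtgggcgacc

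The search covered both strands from 250 bases before to 50 bases after the start. The cyclic AMP response element TGACGTCA stood in the Th promoter, 45 to 38 bases before the start, and in 1.79% of all 32851 windows of the same length. Its core TGACG, which lies within the longer motif and is counted there too, stood on the other strand of the Dbh promoter, 222 to 218 bases before the start (printed as CGTCA), and in 20.8% of windows. The GC box GGGCGG stood in the Th promoter 220 to 215 bases and in the Npy promoter 95 to 90 bases before the start, and in 35.7% of windows. The SOX-type motif ACAAAG (18.7% of windows) and the TATA box TATAAA (13.6%) were found in none of these 3. Of the other members, Ddc had 2 windows, both with ACAAAG and 1 with TATAAA on the other strand, and S100b had 1 window with none of the 5 motifs. Stmn2, Mbp and Sox10 were not in the table of promoters. A match is a description of letters and no evidence of a bound site.

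The 8 genes lie apart in the genome (GRCm38, GENCODE M21), and none shares exon bases with another gene. Th lies on chromosome 7 at 142892752 to 142931128, Ddc on chromosome 11 at 11814101 to 11898144, and Dbh on chromosome 2 at 27165233 to 27183200. The printed promoters of Th and Dbh lie inside these GENCODE spans, which begin upstream of the RefSeq start. Their motif positions therefore hold for the RefSeq start only. Npy lies on chromosome 6 at 49822710 to 49829507 and Stmn2 on chromosome 3 at 8509360 to 8561606. Sox10 lies on chromosome 15 at 79154908 to 79165240, S100b on chromosome 10 at 76253853 to 76261159, and Mbp on chromosome 18 at 82475146 to 82585637.

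Dbh, Npy, Stmn2 and S100b were higher in the libraries labelled ITA-LNP than in those labelled control-LNP, each with no overlap between the groups. Of all genes tested 19.1% showed no overlap in this direction. Ddc and Mbp were not called, and Th and Sox10 fell below the filter on low values. Of 12636 genes with a mean log2(CPM + 1) of at least 1, limma called 10.3% higher with ITA-LNP and 5.15% lower at an adjusted p under 0.05. Of the 6 members that passed the filter 4 were called higher and 0 lower, and their median log2 fold change was 4.36, against 0.15 over all genes tested. The 4 called members passed the filter through the ITA-LNP libraries, so this count and median describe them and are not a test of the group. The 4 stayed called when any 1 of the 7 libraries was left out. When each library was centred on its median gene Dbh and Stmn2 stayed called, and Npy and S100b did not (adjusted p = 0.0800 and 0.0798). Without control-LNP 2 Mbp was called lower as well, where 15.4% of all genes were called higher and 16.0% lower.

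**Figure D1:**
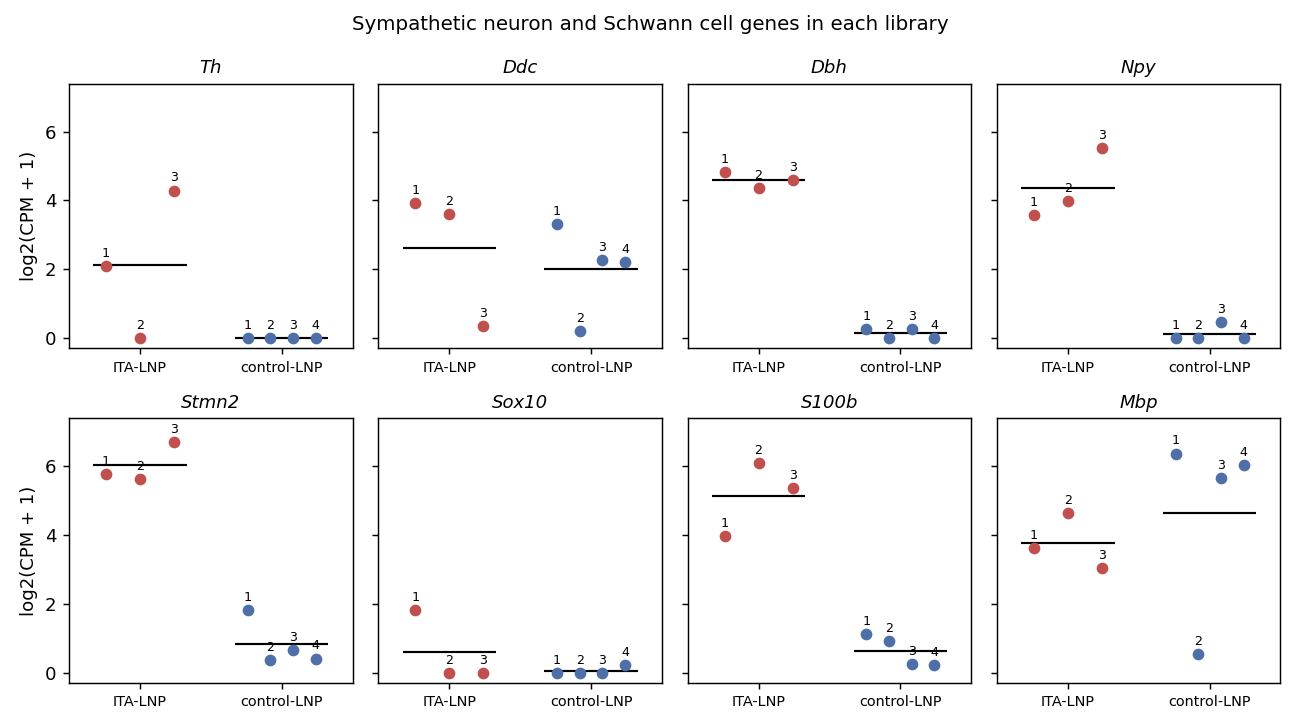
Level of each of the 8 genes as log2(CPM + 1) (vertical axis) in the 3 ITA-LNP libraries (red) and the 4 control-LNP libraries (blue), with the replicate number beside each point and the group mean as a bar. Dbh, Npy, Stmn2 and S100b show no overlap between the groups, Th is at 0 in all 4 control-LNP libraries and in ITA-LNP 2, and Mbp is lowest in control-LNP 2.

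Th, the first and rate-limiting enzyme, was measured at 3.29, 0 and 18.5 CPM in ITA-LNP 1, 2 and 3, and all 4 control-LNP libraries had 0. The summed reads were 156 and 0. The high library was ITA-LNP 3, and ITA-LNP 2 lay with the controls, so the groups touched at 0. The ITA-LNP mean of 7.28 CPM ± 9.89 (SD, n = 3) was at least 13.8-fold higher than the limit of 3 reads per control library, and at least 3.12-fold higher without ITA-LNP 3. Th was below the filter. With no filter its log2 fold change was 2.13, and limma gave an adjusted p of 0.188, with 6.62% of genes called higher in that fit. Without ITA-LNP 2 it passed the filter and was called higher, at 3.20 (adjusted p = 0.0206), in a fit that called 9.5% of genes higher.

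Ddc, which acts on DOPA and on the serotonin precursor and is not limited to nerves, had 14.1, 11.1 and 0.275 CPM with ITA-LNP. In control-LNP 1 to 4 it had 8.86, 0.150, 3.85 and 3.61 CPM. ITA-LNP 3 was as low as control-LNP 2, and the groups overlapped. The log2 fold change was 0.62 ± 1.17 (SE; 95% interval -1.99 to 3.24; limma adjusted p = 0.786), and it was -0.51 when each library was centred on its median gene. ITA-LNP 3, the library with the most Th, thus had the least Ddc of the 3, at 2 reads.

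Dbh, the enzyme that defines noradrenergic cells, was at 27.4, 19.6 and 23.2 CPM with ITA-LNP. In control-LNP 1 to 4 it was at 0.197, 0, 0.192 and 0 CPM, which is 2 reads in 4 libraries against 477 reads in the 3. The ITA-LNP libraries lay within 1.40-fold of each other, the closest of the 8 genes, and far above every control library. The means were 23.4 ± 3.93 and 0.0973 ± 0.112 CPM (SD, n = 3 and 4). The log2 fold change was 4.47 ± 0.74 (95% interval 2.81 to 6.13; limma adjusted p = 0.00298). On summed reads the ratio was 269, with a 95% interval of 74.1 to 2228 that covers counting error only. Each log2 fold change here is on the log2(CPM + 1) scale and understates the change of genes this low.

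Of the 15 genes that make, store, take back or break down catecholamines, 12 passed the filter, of which 5 rose with ITA-LNP and 0 fell. Over all genes tested 10.3% rose and 5.15% fell, and the median was 0.15. Called genes with few control reads, such as Dbh, passed the filter through the ITA-LNP libraries. The counts and medians of this list and those below therefore describe the lists and are no test of them. The median log2 fold change of the list was 1.2, and 0.16 without control-LNP 2. Among these, besides Dbh, were Cyb561, the vesicle cytochrome that supplies Dbh with electrons, Maob, which breaks down amines, and Slc6a2, the noradrenaline transporter of the axon. Slc6a2 was at 32.2, 41.9 and 23.6 CPM with ITA-LNP, compared with 0.985, 0.598, 0.577 and 0.820 CPM with control-LNP. Its log2 fold change was 4.23 ± 0.80 (adjusted p = 0.00564), and every ITA-LNP library lay far above every control.

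Cyb561 was at 39.7, 143 and 74.8 CPM with ITA-LNP, compared with 1.77 CPM or less with control-LNP, a log2 fold change of 5.65 ± 0.90 (adjusted p = 0.00243). Maob was at 31.7, 25.3 and 57.8 CPM and at 0.598 CPM or less, a log2 fold change of 4.87 ± 0.81 (adjusted p = 0.00304). For both, every ITA-LNP library lay above every control library.

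The other 7 tested genes of the pathway did not pass. Slc18a2, the vesicle monoamine transporter, was at 7.69, 27.3 and 19.4 CPM with ITA-LNP, compared with 24.8, 0.299, 15.0 and 34.8 CPM with control-LNP. The groups overlapped fully, the log2 value being 0.54 ± 1.22 (adjusted p = 0.828) and -0.52 when control-LNP 2 was left out. Slc18a2 also loads monoamines and histamine in other cells, and 3 of the 4 control libraries held as much of it as the ITA-LNP libraries. The enzymes that make and recycle the cofactor tetrahydrobiopterin were present in both groups. Gch1 averaged 45.9 and 34.3 CPM, Spr 31.3 and 21.6 CPM and Qdpr 48.1 and 28.9 CPM with ITA-LNP and control-LNP, and their adjusted p-values were 0.601, 0.612 and 0.538. For Pts, of the same cofactor pathway, the log2 value was -2.23 (adjusted p = 0.232), and -0.67 without ITA-LNP 2, which held 0.295 CPM against 34.8 and 29.9 CPM in ITA-LNP 1 and 3. Maoa, which breaks down noradrenaline, averaged 35.3 CPM with ITA-LNP and 60.4 CPM with control-LNP. Its log2 value was 0.33 (adjusted p = 0.915), and turned to -1.11 (adjusted p = 0.0708) without control-LNP 2. Slc18a1, the monoamine transporter of chromaffin cells, and Pnmt, which turns noradrenaline into adrenaline, had 0 reads in all 7 libraries.

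Npy was at 11, 14.7 and 45.2 CPM with ITA-LNP, compared with 0, 0, 0.385 and 0 CPM with control-LNP, or 499 against 2 reads. ITA-LNP 3 was the highest, above the other 2 together, as it was for Th. The means were 23.6 ± 18.8 and 0.0962 ± 0.192 CPM (SD, n = 3 and 4), and without ITA-LNP 3 the first was 12.9 CPM. The log2 fold change was 4.25 ± 0.81 (95% interval 2.42 to 6.07; limma adjusted p = 0.00603), and the ratio of summed reads was 281 (77.5 to 2331). The groups did not overlap, which held for 19.1% of genes tested in this direction.

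Peptides and noradrenaline are packed in dense-core vesicles. Of 15 genes of these vesicles and their peptides 8 passed the filter, of which 4 rose, 0 fell and the median was 3.40 (all genes tested: 10.3%, 5.15% and 0.15). The largest was Cpe, a carboxypeptidase that trims prohormones, at 413, 553 and 572 CPM with ITA-LNP against 4.73, 4.93, 2.5 and 3.28 CPM, a log2 fold change of 6.74 ± 0.58 (adjusted p = 0.000116). Pam, the peptide-amidating enzyme that finishes neuropeptide Y, was at 690.3, 708 and 679 CPM against 23.0, 49.0, 10.6 and 13.9 CPM (5.02 ± 0.56, adjusted p = 0.000463). Both are well above the levels of Npy, and both are also made by cells other than neurons. Penk, the enkephalin precursor, was at 6.43, 3.83 and 13.3 CPM against 1.48 CPM or less (2.62 ± 0.76, adjusted p = 0.0459), and it lost the call when any of 5 libraries was left out.

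The granins, structural proteins of these vesicles, were uneven. Chgb was at 36.5, 0 and 34.7 CPM and Scg3 at 35.6, 0 and 27.6 CPM with ITA-LNP, and both were at 0 in all 4 control-LNP libraries. Neither was called (adjusted p = 0.0985 and 0.101), and both were called without ITA-LNP 2 (adjusted p = 0.00540 and 0.00557). Chga, Vgf, Pcsk1, Cartpt and Sst had 0 reads throughout.

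Stmn2 was at 54.1, 48.6 and 104 CPM with ITA-LNP, compared with 2.56, 0.299, 0.577 and 0.328 CPM with control-LNP, or 1434 against 20 reads. All 3 ITA-LNP libraries were above all controls, ITA-LNP 3 highest again, and control-LNP 1 was the highest control. The log2 fold change of 5.23 ± 0.87 (95% interval 3.28 to 7.17; limma adjusted p = 0.00298) was the largest among the 6 members tested. Its mean of 69.0 CPM was also the highest of the 8 in the ITA-LNP libraries, followed by S100b (41.0), Npy (23.6) and Dbh (23.4), then Mbp (14.2), Ddc (8.48), Th (7.28) and Sox10 (0.837). Over the 3 libraries each gene in this order overlapped the next. In the control-LNP libraries the order was Mbp (49.2 CPM), Ddc (4.12), Stmn2 (0.941), S100b (0.609), Dbh (0.0973), Npy (0.0962), Sox10 (0.0410) and Th at 0.

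Of 20 axon and synapse genes 12 passed the filter, and 5 rose, 0 fell, with a median of 2.69 (all genes tested: 10.3%, 5.15% and 0.15). Map1b, which binds microtubules in growing axons and is made in other cells too, was at 588, 564 and 632 CPM against 2.69 to 9.45 CPM (6.43 ± 0.58, adjusted p = 0.000139). Syt1, the calcium sensor of synaptic vesicles, was at 55.5, 25.1 and 82.7 CPM against 0 to 0.197 CPM (5.45 ± 0.84, adjusted p = 0.00210). Syt4 and the neurofilament Nefm were called at 3.53 and 3.29 (adjusted p = 0.0129 and 0.0181), and each lost the call without control-LNP 1, 3 or 4, at adjusted p-values up to 0.0725 and 0.0893.

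Other axon genes depended on the library. Snap25 of the release machinery was at 35.6, 0.147 and 14.4 CPM and Gap43 of growing axons at 21.5, 0.295 and 3.85 CPM with ITA-LNP, and neither was called. Prph was at 0.157, 0.295 and 26.0 CPM, Uchl1 at 0, 27.3 and 0.275 CPM and Elavl4 at 0, 0 and 16.5 CPM, each thus mostly in 1 of the 3 libraries. Rtn1 and Thy1 were not called in all 7 libraries, but without control-LNP 2 Rtn1 was called higher (2.40, adjusted p = 0.0162) and Thy1, which T cells also carry, lower (-1.53, adjusted p = 0.0127). Rtn1 was at 155 CPM in control-LNP 2 and at most 7.22 CPM in the other controls.

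Of 14 genes that mark the sympathetic lineage 7 passed the filter, 1 rose, 0 fell and the median was 2.40 (all genes tested: 10.3%, 5.15% and 0.15). The 1 called was Hand2, a transcription factor of sympathetic neurons and of some connective tissue, at 31.5, 12.1 and 15.0 CPM against 0.591 CPM or less (3.93 ± 0.78, adjusted p = 0.00716). Phox2a, needed for the noradrenergic fate, was at 1.10, 3.54 and 1.51 CPM with ITA-LNP, compared with 0.591, 0.150, 0.769 and 0.984 CPM with control-LNP, low in both (0.86 ± 0.64, adjusted p = 0.435). Insm1, of the same lineage, was at 6.59, 0 and 0.137 CPM with ITA-LNP.

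The receptors of this lineage were again seen in some ITA-LNP libraries only. Ret, the receptor of GDNF-family ligands, was at 11.5, 16.9 and 0 CPM, and Chrnb4, a nicotinic receptor subunit of ganglion cells, at 0, 22.3 and 28.8 CPM. Its partner Chrna3 was at 3.45, 0 and 18.8 CPM. Ret had 0 reads in all controls, and the other 2 were at 0.591 CPM or less there. Ret and Chrnb4 were not called (adjusted p = 0.119 and 0.125), but Ret was without ITA-LNP 3 and Chrnb4 without ITA-LNP 1 (adjusted p = 0.00644 and 0.00787). Gata2 and Gata3, which blood cells use as well, were not called (adjusted p = 0.246 and 0.966), and Gata3 was called lower without control-LNP 2 (-1.25, adjusted p = 0.0272).

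**Figure D2:**
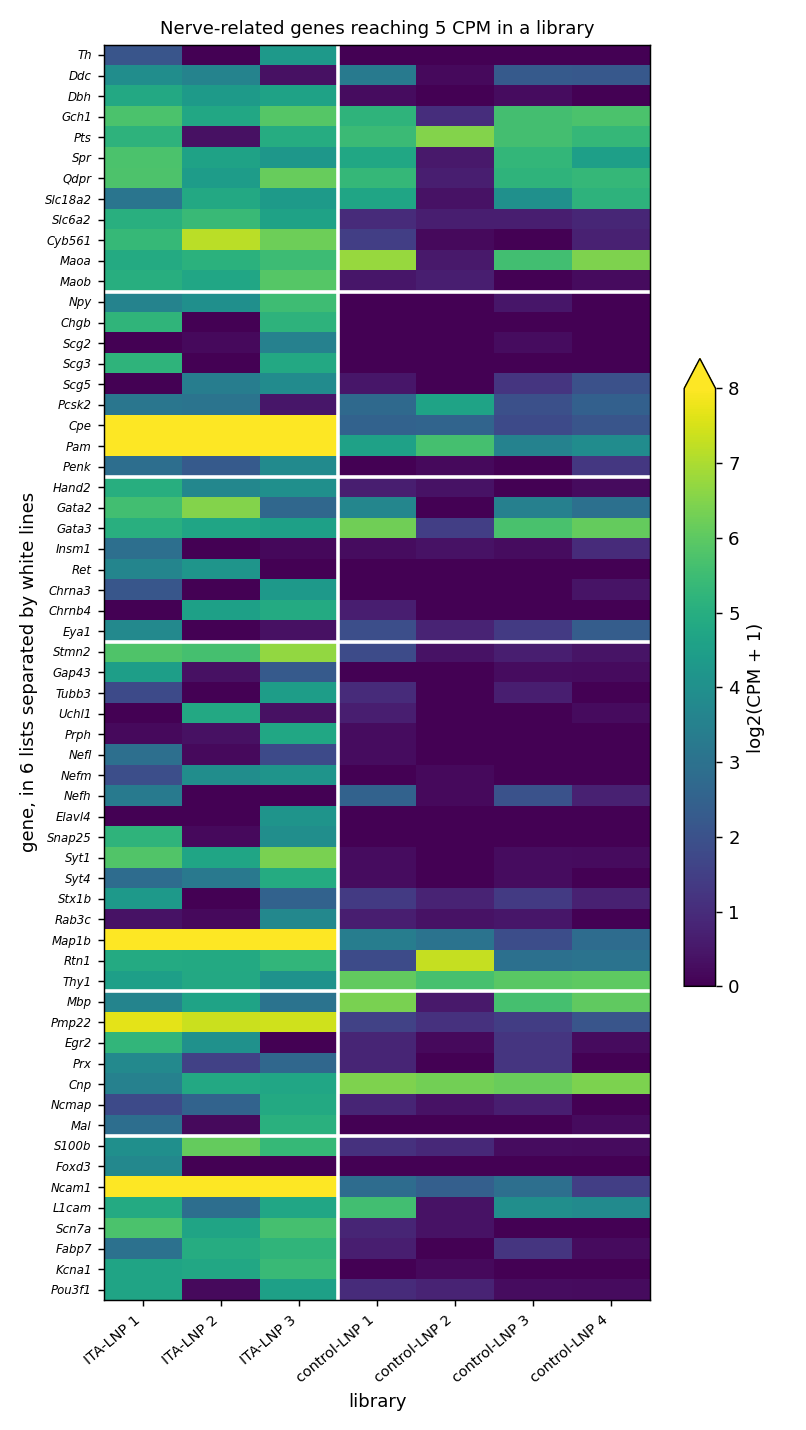
Colour gives log2(CPM + 1) in each of the 7 libraries (columns) for genes of 6 nerve-related lists (rows, lists separated by white lines) that reached 5 CPM in at least 1 library, with the scale capped at 8. Dbh, Slc6a2, Npy, Stmn2 and Kcna1 are bright in all 3 ITA-LNP libraries, whereas Chgb, Ret and Chrnb4 are dark in 1 of them.

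S100b, the calcium-binding protein of Schwann cells and also of some other cells, was at 14.7, 67.9 and 40.4 CPM with ITA-LNP. It was at 1.18, 0.897, 0.192 and 0.164 CPM in the 4 control-LNP libraries, and the reads were 849 and 14. All 3 ITA-LNP libraries were above all controls, but here ITA-LNP 2 was the highest, where Npy and Stmn2 were highest in ITA-LNP 3. The log2 fold change was 4.52 ± 0.89 (95% interval 2.52 to 6.52; limma adjusted p = 0.00702), and the ratio of summed reads was 68.4 (40.5 to 125.7).

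Sox10, which sets the Schwann cell fate, was nearly absent at this depth. It had 2.51, 0 and 0 CPM with ITA-LNP and 0, 0, 0 and 0.164 CPM with control-LNP, or 16 reads in ITA-LNP 1 and 1 read in control-LNP 4. The ratio of summed reads was 18.1 with a counting interval of 2.80 to 757, and the groups overlapped. With no filter the log2 fold change was 0.55 (adjusted p = 0.485). The name Schwann cell is thus not borne out by Sox10 here, and Foxd3, Cdh19, Erbb3 and Ngfr, given below, were thin as well. S100b was called, but which cells held it was not tested.

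Of 17 Schwann cell genes other than those of myelin 7 passed the filter, of which 5 rose, 0 fell and the median was 4.52 (all genes tested: 10.3%, 5.15% and 0.15). Ncam1, an adhesion molecule of non-myelinating Schwann cells, neurons and other cells, was at 677, 496 and 580.4 CPM against 6.11, 4.34, 6.54 and 1.80 CPM (6.77 ± 0.61, adjusted p = 0.000139). Scn7a, a sodium channel of non-myelinating Schwann cells, was at 51.9, 24.3 and 48.5 CPM against 0.788 CPM or less (5.03 ± 0.82, adjusted p = 0.00278). Kcna1, a potassium channel of axons and Schwann cells, was at 24.5, 26.7 and 42.0 CPM and had 1 read in all 4 controls together (4.91 ± 0.76, adjusted p = 0.00220). Fabp7, a lipid carrier of immature glia, was called at 3.86 ± 0.90 (adjusted p = 0.0158) and lost the call without control-LNP 1 or 4.

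The remaining genes of the lineage were thin. Foxd3 was at 12.4, 0 and 0 CPM and Cdh19 at 0, 4.72 and 0 CPM with ITA-LNP. The neuregulin receptor Erbb3 was at 2.51, 0 and 0 CPM with ITA-LNP, compared with up to 2.30 CPM with control-LNP. The low-affinity neurotrophin receptor Ngfr had 0 reads with ITA-LNP and 13 with control-LNP. Gfap and Dhh had 0 reads throughout.

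Mbp ran the other way in 3 of the 4 controls. It was at 11.3, 24.2 and 7.28 CPM with ITA-LNP, compared with 82.1, 0.449, 49.4 and 64.8 CPM in control-LNP 1, 2, 3 and 4, or 289 against 1072 reads. Control-LNP 1, 3 and 4 were above every ITA-LNP library and control-LNP 2 was below them all. With all 7 libraries the log2 fold change was -0.88 ± 1.39 (95% interval -3.99 to 2.24; limma adjusted p = 0.741). Without control-LNP 2 Mbp fell by 2.25 on the log2 scale (SE 0.51, adjusted p = 0.0120).

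Mbp is known to have an upstream start whose products, the golli forms, are made in immune cells as well as in glia. GENCODE lists 16 Mbp transcripts, of which 4 start within 1000 bases of the gene start and 12 later. Of the first, 2 end within 2000 bases of the gene end, as all 12 of the others do, so that 3′ reads do not tell these forms apart. The summed lymphocyte genes were 1712, 491.0, 1733 and 1743 CPM in control-LNP 1 to 4, lowest where Mbp was lowest, and 20.6 to 34.5 CPM with ITA-LNP. Their part in the Mbp level was not tested. Oligodendrocyte genes, the other main source of Mbp, summed to 0.985 CPM or less in the controls and to 0, 10.9 and 0 CPM in ITA-LNP 1, 2 and 3. The 10.9 CPM were 74 reads of Mog in the ITA-LNP library with the most Mbp, and their part was not tested. Olig1, Olig2, Opalin and Ermn had 0 reads in all 7 libraries.

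Peripheral myelin genes were divided. Of 15 such genes, Mbp among them, 10 passed the filter, 2 rose and 1 fell, with a median of 2.31 (all genes tested: 10.3%, 5.15% and 0.15). Pmp22, of compact myelin, which fibroblasts make too, was at 201, 162 and 172 CPM against 1.2 to 3.28 CPM (5.92 ± 0.72, adjusted p = 0.000668). Cnp, an enzyme of myelin that is also found in lymphocytes, fell by 1.97 on the log2 scale (SE 0.57, adjusted p = 0.0459), from 79.8 CPM with control-LNP to 21.2 CPM with ITA-LNP. With 1 library left out it held the call only for control-LNP 2, where 2 of the 10 rose and Mbp and Cnp were lower.

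Differences between members within a library were also compared, as log2(CPM + 1) of 1 gene minus that of the other. For Mbp minus S100b the group means were -1.38 ± 0.98 and 4.02 ± 2.95 (SD, n = 3 and 4), with an exact two-sided permutation p of 0.114. For Ddc minus Dbh they were -1.98 ± 1.97 and 1.87 ± 1.2 (exact two-sided permutation p = 0.0571). With 35 splits 0.0571 is the smallest p that this two-sided test can give, so no pair could fall under 0.05. In all 3 pairs were compared, chosen after their values were seen, and adjusted over the 3 both p-values are 0.114.

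**Figure D3:**
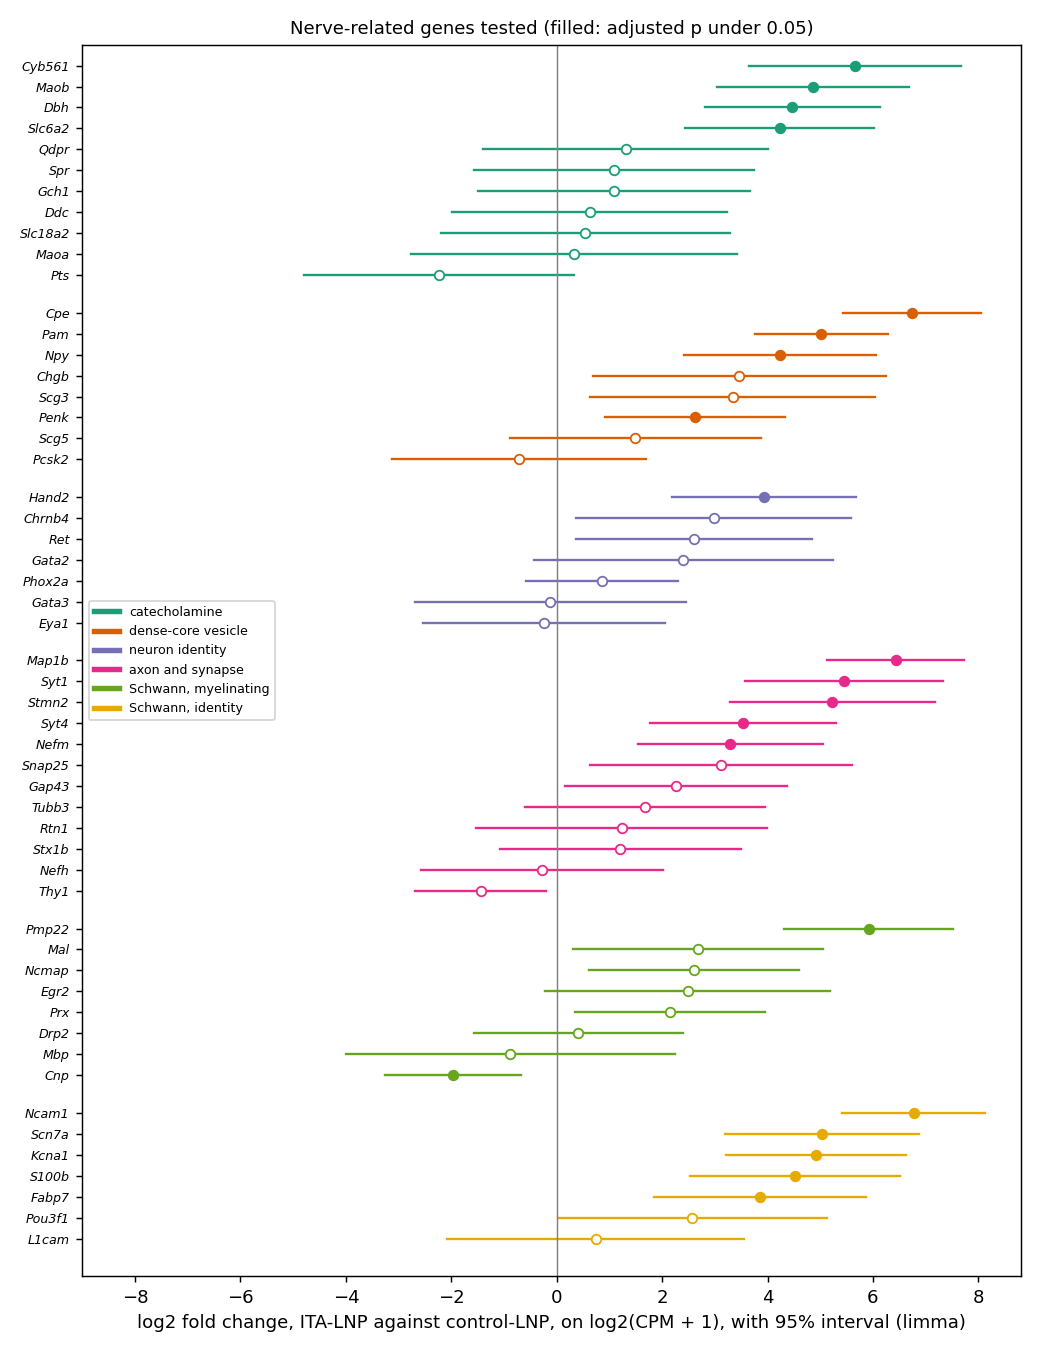
log2 fold change of ITA-LNP against control-LNP (horizontal axis, on log2(CPM + 1)) with its 95% interval from limma, for tested genes of 6 nerve-related lists (colours). Filled points passed an adjusted p under 0.05; Cnp is the single filled point below 0 among those drawn, and Mbp and Ddc have intervals that span 0.

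Of the 30 genes called in 9 nerve-related lists, those of trophic factors and receptors below included, centring each library on its median gene ended 16 calls. Besides Npy and S100b these included Slc6a2, Maob, Pam, Penk, Hand2, Nefm, Syt4, Cnp, Fabp7, Bdnf, Ntrk2 and Ednrb, with adjusted p-values from 0.0504 for Ntrk2 to 0.350 for Penk, and each kept its direction.

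Nerves grow and branch toward trophic factors released by the wall. Of 18 genes of such ligands, guidance cues and their receptors 10 passed the filter, 6 rose, 0 fell and the median was 3.66 (all genes tested: 10.3%, 5.15% and 0.15). Among ligands, Ntf3 (neurotrophin-3, made by smooth muscle for sympathetic axons) was at 42.4, 35.5 and 71.8 CPM with ITA-LNP against 0.192 to 0.492 CPM (5.18 ± 0.81, adjusted p = 0.00225). Bdnf was at 66.8, 48.5 and 16.3 CPM against 0.897 to 3.28 CPM (3.87 ± 0.89, adjusted p = 0.0154), and lost the call without ITA-LNP 1, ITA-LNP 2 or control-LNP 3. Gdnf, Nrtn and Artn had 0 reads in all 7 libraries.

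Among the receptors, Ntrk2 was at 34.5, 37.1 and 74.3 CPM against 1.05 CPM or less (5.0 ± 0.83, adjusted p = 0.00301). Ntrk3, the receptor of neurotrophin-3, was at 124, 149 and 219.7 CPM against 1.5 to 25.6 CPM (3.98 ± 0.86, adjusted p = 0.0113, and 0.0653 without ITA-LNP 3). Nrp1, a semaphorin receptor that vessels share, was called at 4.15 (adjusted p = 0.00901), and Ednrb, the endothelin receptor of the neural crest, at 3.45 (adjusted p = 0.0143), which was lost without control-LNP 3 or 4. Plxna4 and Sort1 were not called. Without control-LNP 2 the repellent ligand Sema3a was called as well (2.73, adjusted p = 0.0464), which made 7 of 11.

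On the receiving side, of 14 receptors for noradrenaline and neuropeptide Y and the peptidase Dpp4, 6 passed the filter and 1 rose, with a median of -0.72, or -1.42 without control-LNP 2. Npy1r, through which neuropeptide Y constricts arteries, was at 114, 112 and 161 CPM with ITA-LNP, compared with 2.56, 0.897, 3.85 and 0.328 CPM with control-LNP. The groups did not overlap (5.64 ± 0.82, limma adjusted p = 0.00169), so Npy and its Y1 receptor were both higher with ITA-LNP. Of the alpha-1 adrenoceptors, Adra1d had 0 reads in all 7 libraries, Adra1a was at 2.35 CPM or less, and Adra1b was at 0, 0 and 46.6 CPM with ITA-LNP. Dpp4, which trims neuropeptide Y and sits on T cells, was called lower without control-LNP 2 (-2.95, adjusted p = 0.00154). Npy2r and Npy5r had 0 reads in all libraries.

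Lists of other cells that carry some of these genes were read beside them. None of 10 sensory neuron genes passed the filter, and they summed to 0.147 to 11.4 CPM with ITA-LNP and 0.150 to 3.08 CPM with control-LNP, with Calca, Tac1, Scn10a, Prdm12 and Mrgprd at 0. None of 6 cholinergic and nitrergic genes passed, with sums of 0.147 to 1.92 and 0.150 to 2.36 CPM and Chat, Slc18a3, Slc5a7 and Vip at 0. Adrenal cortex genes summed to 0 to 2.51 CPM with ITA-LNP and to 0.598 to 22.5 CPM with control-LNP, and 5 of 8 were at 0 in all 7 libraries. Of the other 3, Star had 17 reads with ITA-LNP and 227 with control-LNP, Cyp11a1 0 and 9, and Cyp11b1 1 and 8. The part of the adrenal gland in these values was not tested.

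Connective and fat tissue around the vessel, in which the nerves run, moved with the group. Fibroblast genes summed to 19033 to 22107 CPM with ITA-LNP and 123.3 to 292.0 CPM with control-LNP, with 7 of 8 higher. White adipocyte genes summed to 5886 to 7223 and 53.6 to 348.0 CPM, with 4 of 9 genes higher, but Fabp4, which endothelium shares, made up 5589 to 7040 CPM of the first range and Plin1 was at most 0.784 CPM there. Cartilage-like genes, some of which Schwann and neural crest cells share, summed to 705 to 946 and 10.5 to 45.3 CPM, with 5 of 7 higher. Melanocyte genes, another neural crest lineage that uses Sox10, summed to 15.4 to 55.3 and 56.9 to 126.5 CPM, with Dct and Tyrp1 at 0. Pmel made up 54.0 to 122.5 CPM of the second range and was called lower (-3.51, limma adjusted p = 0.00698). Mitf, the other gene tested, was called higher (3.33, limma adjusted p = 0.0360). With 1 library left out Mitf held the call only for control-LNP 2. The part of these tissues in the nerve genes was not tested.

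Set against the smooth muscle genes of each library, Dbh, Npy, Stmn2 and S100b overlapped between the groups, with few reads in the controls. In the control-LNP libraries Dbh was at 0.416% of its ITA-LNP mean, Stmn2 at 1.36%, S100b at 1.48% and Npy at 0.407%. The 9 smooth muscle genes were at 0.450% to 3.92%, with a median of 0.916%, so that Stmn2 and S100b lay inside that range and Dbh and Npy just below it. The fibroblast genes had a median of 0.995% but ran from 0.594% to 46.2%, and the endothelial genes had a median of 0.866% and ran from 0.222% to 146.6%, with Vwf, which platelets share, at the top. Per 1000 CPM of smooth muscle genes Stmn2 was at 3.22, 2.68 and 5.10 CPM with ITA-LNP, compared with 11.6, 1.97, 4.80 and 2.52 CPM with control-LNP, and the groups overlapped. Those control values rest on 13, 2, 3 and 2 reads. S100b was at 0.877, 3.75 and 1.98 CPM against 5.33, 5.92, 1.60 and 1.26 CPM, and also overlapped, on 6, 6, 1 and 1 control reads. Npy was at 0.653, 0.813 and 2.21 CPM against 0, 0, 3.2 and 0 CPM, where 3.2 rests on 2 reads. Th stayed at 0 in all 4 controls. Dbh was at 1.63, 1.08 and 1.14 CPM against 0.889, 0, 1.60 and 0 CPM, where each control value rests on at most 1 read. Mbp and Ddc went above the ITA-LNP range in all 4 controls on this scale, Mbp at 371, 2.96, 411 and 498 CPM against 0.356 to 1.33 CPM. The smooth muscle sum was 16820 to 20435 CPM with ITA-LNP and 120.2 to 221.6 CPM with control-LNP. Dividing by it lifts any gene not lowered as far in the controls, so no conclusion is drawn from this direction. In control-LNP 2 the values rest on 3 reads of Mbp and 1 read of Ddc. These ratios were computed after the values were seen and carry no test.

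**Figure D4:**
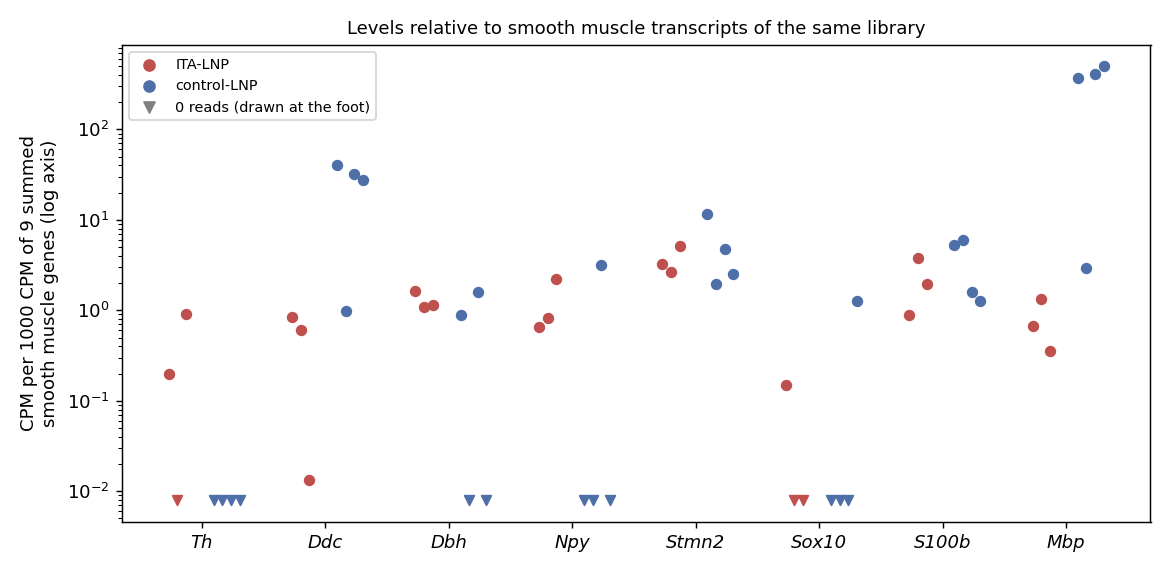
Each gene's CPM per 1000 CPM of 9 summed smooth muscle genes of the same library (vertical log axis), for 3 ITA-LNP (red) and 4 control-LNP (blue) libraries, with triangles at the foot for 0 reads. Stmn2 and S100b overlap between the groups on this scale, on 1 to 13 reads per control library. Mbp lies at 2.96 to 498 CPM in the controls and at 0.356 to 1.33 CPM with ITA-LNP.

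Over the 7 libraries Dbh, Npy, Stmn2 and S100b ran together, with Pearson correlations of 0.944 to 0.982 on the log2(CPM + 1) scale. Ddc correlated with Dbh at 0.244 and Mbp at -0.211, and Ddc with Mbp at 0.624. These are descriptions over 7 libraries that fall into 2 groups and share depth and group, so no p is given. Of all other genes, those most like the mean scaled profile of the 6 tested members were Slc30a4 (r = 0.996), Gdap1 (0.995), Acadsb (0.995), Itga1 (0.994) and Tceal8 (0.994). All 5 were higher in every ITA-LNP library than in any control and lowest in control-LNP 2, as Mbp and Ddc were among the controls; Gdap1 ran from 6.04 to 8.94 CPM with ITA-LNP and from 0.150 to 2.17 CPM with control-LNP.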

How the data were processed

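RNA of whole abdominal aorta was measured in 3 ITA-LNP and 4 control-LNP libraries, grouped by the sample titles. Libraries were made from 500 ng of total RNA with a QuantSeq 3′ kit, per the labels' protocols. Reads were placed on mm10, per the submitters' processing notes. The sources used here name no aligner, counter, annotation, strand setting or molecular identifier, and without strand, reads from antisense partners cannot be told apart.

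The values deposited by the authors are log10 values, read from the values themselves as log10(CPM + 1), since CPM so recovered sum to 1000000 in each library. Whole reads were recovered for 100.0% of values within 0.01, which gave the depth of each library. On the scale log2(CPM + 1), with its pseudocount of 1 CPM, genes with a mean of at least 1 were tested by limma-trend (limma 3.58.1, R 4.3.3) over all 7 libraries, with Benjamini-Hochberg adjustment over all genes tested. Errors after a log2 fold change are standard errors. The procedure was tested on simulated data. Coordinates are of GENCODE M21, in which 31400 of 32544 names matched; promoters are of RefSeq.

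The 24 gene lists, the members being 1 of them (250 of 251 genes in the table), were chosen with earlier results of these data known, and have no test over a list. Named were the members, any gene of the catecholamine, sympathetic lineage and receptor lists, up to 6 called and 2 uncalled genes of each other list, and the 5 genes most like the members. Snap25, Gap43, Prph, Uchl1, Elavl4, Sema3a, Foxd3, Cdh19, Erbb3 and the genes named for 0 reads were picked after their values were seen. Some genes of the lists are not reported here and stay in the counts, but not in the figures. Exact permutation tests used scipy 1.17.1. Alternatives were other filters, pseudocounts, scaling, sample weights, a replicate block and leaving out each library. limma-voom on the recovered reads and fits without both the filter and control-LNP 2 were added after the data were seen. Other tools were Python 3.11.15, pandas 2.3.3, numpy 2.4.6 and matplotlib 3.10.9.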

Additional observations from a re-analysis of the deposited data

Results flagged for a closer look

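Of 32 values checked among the 4 control-LNP libraries (the 8 members, the summed level of each other list and the number of genes detected), 8 had 1 library far from the other 3. Chance gives about 1 in 20 for values that vary in all libraries. That rate does not apply to Npy and Sox10, where the other 3 libraries were at 0 and any read sets the library apart. Nor does it apply to Th, which was at 0 in all 4 and could not be flagged. Among the members these were Npy in control-LNP 3, at 0.385 CPM (2 reads) with 0 elsewhere, Stmn2 in control-LNP 1, at 2.56 CPM, and Sox10 in control-LNP 4, at 0.164 CPM (1 read). Control-LNP 2 stood apart in the summed axon and synapse genes, at 214.5 CPM, of which Rtn1 gave 155. It also stood apart in the receptors for noradrenaline and neuropeptide Y with Dpp4, at 23.2 CPM. The same held for the white adipocyte genes, at 348.0 CPM, and the lymphocyte genes, at 491.0 CPM. Control-LNP 1 stood apart in the oligodendrocyte genes, at 0.985 CPM.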

How the results depend on the processing

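Dbh and Stmn2 were called higher in all 17 alternatives, and Npy and S100b in all that tested them except 2. With each library centred on its median gene the median log2 fold change of all genes went from 0.15 to -0.98, 741 genes were higher and 1249 lower, and 2 members were called: Npy (3.12, adjusted p = 0.0800) and S100b (3.39, adjusted p = 0.0798) were not. The share of calls that were higher was 66.7% in all 7 libraries, 37.2% with centring, 48.4% with sample weights and 49.1% without control-LNP 2. Sample weights gave 2100 genes higher and 2243 lower and called Mbp lower (1 member). Leaving out 1 library gave 984 to 1988 genes higher and 401 to 2065 lower, with 4 to 5 members higher and 0 to 1 lower. Without control-LNP 2, limma-voom gave 2026 genes lower and the fit with no filter 2125, each with 1 member lower, Mbp; voom on all libraries gave 1270 higher and 498 lower. The planned quasi-likelihood count test was not run. Of 782 list counts under the alternatives 685 were within 1.5 times and 97 were not. The cause of these shifts was not tested. Depth limits Th, Sox10 and every control value of 3 reads or fewer.

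The replicate numbers did not pair the samples: deviations of same-numbered libraries correlated at 0.00528, -0.0105 and -0.0173. With the number as a replicate block 738 genes were higher and 322 lower, and 2 members were called, Dbh (adjusted p = 0.0438) and Stmn2 (0.0366), with Npy at 0.0527 and S100b at 0.0607.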

Other observations

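Genes found in some but not all ITA-LNP libraries were not limited to the nerve. Of 10567 genes with a mean of at least 5 CPM in the ITA-LNP libraries, 17.2% had 0 or 1 read in at least 1 of the 3, and of 57 such genes in the 7 nerve-related lists 16 did (28.1%). All 16 had means of 5 to 30 CPM, where the shares were 33.7% of 5274 genes and 43.2% of 37 nerve-related genes. In the 4 control-LNP libraries 2262 of 9456 such genes did (23.9%), and in control-LNP 1, 3 and 4 alone 36 of 9841 (0.366%). Genes detected numbered 12226 to 12856 with ITA-LNP, 14232 to 15333 in those 3 controls and 10846 in control-LNP 2.

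Of 17 paralogs of the members, such as other stathmins, S100 proteins and aromatic amino acid hydroxylases, 9 passed the filter. By limma 0 were called in either direction, where 10.3% of all genes tested were called higher and 5.15% lower. Without control-LNP 2, 2 were higher and 2 lower, where 15.4% and 16.0% of all genes tested were. S100a1 was among those lower (-2.26, limma adjusted p = 0.00160). Tph2, which makes brain serotonin and shares Ddc with the noradrenaline pathway, had 0 reads in all 7 libraries.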
